A study of Mus musculus with 22 samples.

Results

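Mir132 and Mir212 are neighbouring microRNA genes that lie in the first intron of the noncoding host gene 1700016P03Rik. The rows examined here are the 3 genes of the deposited count table whose Ensembl identifiers carry these symbols, of 53379 genes in all, and all 3 passed the filter on low counts, as did 40714 genes of the whole table. The libraries came from nuclei of the left hippocampus, contralateral to the injection (CLH), of adult male C57/BL6N mice, 24 h after kainate or sham (saline) was injected above the right hippocampus. Left is the side given by the sample titles and the study, whereas the extraction text of the labels names the right hippocampus, and the side was not settled here. Nuclei of several pooled mice were sorted with an antibody against the neuronal protein NeuN into NeuN+ (neurons) and NeuN– (glia) fractions. The groups were kainate NeuN+ (KLp, 3 libraries), sham NeuN+ (SLp, 3), kainate NeuN– (KLn, 3) and sham NeuN– (SLn, 2). Kainate mice were kept only if they showed convulsive seizures, so the kainate groups stand for animals that had status epilepticus, and no allele or transgene was involved.

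A microRNA gene is transcribed as a long primary transcript, from which Drosha and Dgcr8 cut a hairpin in the nucleus and Dicer1 then cuts the mature strand that an Argonaute protein loads. The mature strand pairs through its seed, bases 2 to 8, with sites in the 3′ UTR of target mRNAs and lowers their translation or stability. The miR-132/212 locus is known for transcription driven by neuronal activity through CREB, and its microRNAs for effects on dendrites, synapses and plasticity. The counts below stand for the primary transcript, since mature microRNAs are too short to enter an mRNA library, so nothing here measures the mature strands.

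On GRCm38 the host gene 1700016P03Rik (ENSMUSG00000085609) spans chr11:75172560-75177633 on the plus strand, and its 3 exons hold 863 bases. Its first intron, of 1380 bases, holds the Mir212 hairpin (ENSMUSG00000065590, chr11:75173388-75173478, 91 bases) and, 203 bases further on, the Mir132 hairpin (ENSMUSG00000065537, chr11:75173682-75173747, 66 bases). Both hairpin rows are thus intronic and noncoding, 230 bases or more before exon 2. Exon 3 of the host, 641 of its 863 exonic bases, lies wholly inside an exon of Ovca2 on the minus strand, and the strand setting of the counting and its handling of reads over 2 genes are not given in the sources used here, so host reads in exon 3 cannot be told apart from Ovca2 reads, or may have been dropped. The hairpin rows overlap no exon of another gene.

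**Figure D1:**
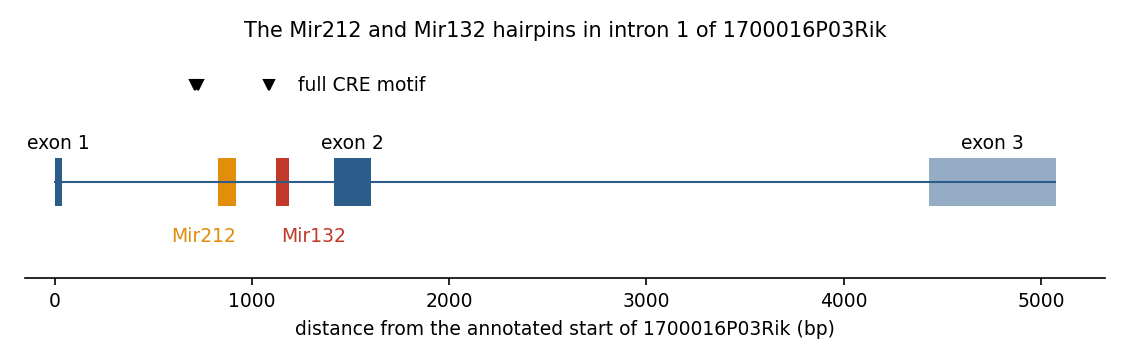
Map of the locus, with the distance from the annotated start of 1700016P03Rik in bp on the horizontal axis; blue boxes are host exons (the pale one overlaps an Ovca2 exon on the other strand), coloured boxes the hairpins and triangles the 3 full CRE motifs. The hairpins and the motifs all lie in the 1380-base first intron, the first motif 710 bases from the start.

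The hairpins, which are the counted features, are given from RefSeq (GRCm38.p6), 5′ to 3′, with both mature arms in capitals.
Mir212 hairpin: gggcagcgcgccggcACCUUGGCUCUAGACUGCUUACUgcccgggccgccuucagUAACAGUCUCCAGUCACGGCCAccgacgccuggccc
Mir132 hairpin: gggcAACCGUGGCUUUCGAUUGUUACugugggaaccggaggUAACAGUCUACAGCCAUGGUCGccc

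The mature strands are shown to place the targets described further on, with the seed in capitals.
miR-132-3p: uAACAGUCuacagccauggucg
miR-212-3p: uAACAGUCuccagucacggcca
miR-132-5p: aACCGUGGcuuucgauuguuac
miR-212-5p: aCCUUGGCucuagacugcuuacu
The 3p strands shared the seed AACAGUC, which no other of 1738 mature strands in the RefSeq table carried. They were identical at 17 of 22 positions and differed by A10C, C14U, U17C, U20C and G22A, counted from the 5′ end with the base of miR-132-3p first. The 5p strands had different seeds and were identical at 9 of 22 positions.

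CREB binds the cAMP response element (CRE), whose full form is TGACGTCA and whose short form is TGACG, and both strands were searched from 1 kb before the host start to the end of the Mir132 hairpin. The 2188-base window held 3 full motifs, all in intron 1. A pair of them began 710 and 726 bases after the host start, and the third lay between the hairpins. They are shown because the activity genes described further on are named for the same element, with the motifs in capitals.
chr11:75173250-75173313 plus strand, before the Mir212 hairpin: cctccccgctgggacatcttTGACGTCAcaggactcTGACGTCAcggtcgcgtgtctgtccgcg
chr11:75173626-75173673 plus strand, between the hairpins: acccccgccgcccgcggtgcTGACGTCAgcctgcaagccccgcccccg
Of 54269 windows of the same length along chromosome 11, 1.36% held at least 1 full motif and 3 windows held 3 or more. The 300-base window around the host start held no full motif and 2 short motifs, which are part of every full motif. The full motif was found in 1.79% of 32851 RefSeq promoters of that length and 2 or more short motifs in 5.01%. These matches are letters in the reference, and binding was not measured.

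In neurons every row of the locus was higher after kainate, by a factor of 5 to 6, and in no case did a kainate library overlap a sham library. Values are CPM, the reads of a row scaled to a common library total after TMM normalisation, which sets libraries against each other on the bulk of their genes. Mir132 stood at 9.89, 9.89 and 15.4 CPM in the kainate libraries and at 2.42, 2.64 and 1.29 CPM in the sham libraries (139, 388 and 341 reads against 36, 92 and 40). The lowest kainate library was thus well above the highest sham library, and the kainate mean of 11.7 CPM ± 3.16 (SD, n = 3) compared with 2.12 ± 0.725 (n = 3).

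Mir212 stood at 7.40, 7.59 and 10.7 CPM after kainate and at 1.28, 1.06 and 1.93 CPM after sham (104, 298 and 238 reads against 19, 37 and 60). Replicate 3 was the highest library of both groups for this row, with means of 8.57 ± 1.86 and 1.42 ± 0.454 CPM (SD, n = 3 each). The host 1700016P03Rik stood at 32.2, 24.1 and 27.6 CPM after kainate and at 8.33, 4.36 and 3.93 CPM after sham, with means of 28.0 ± 4.08 and 5.54 ± 2.42 CPM (SD, n = 3 each). The spread of the kainate libraries was small beside the gap to sham for all 3 rows.

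**Figure D2:**
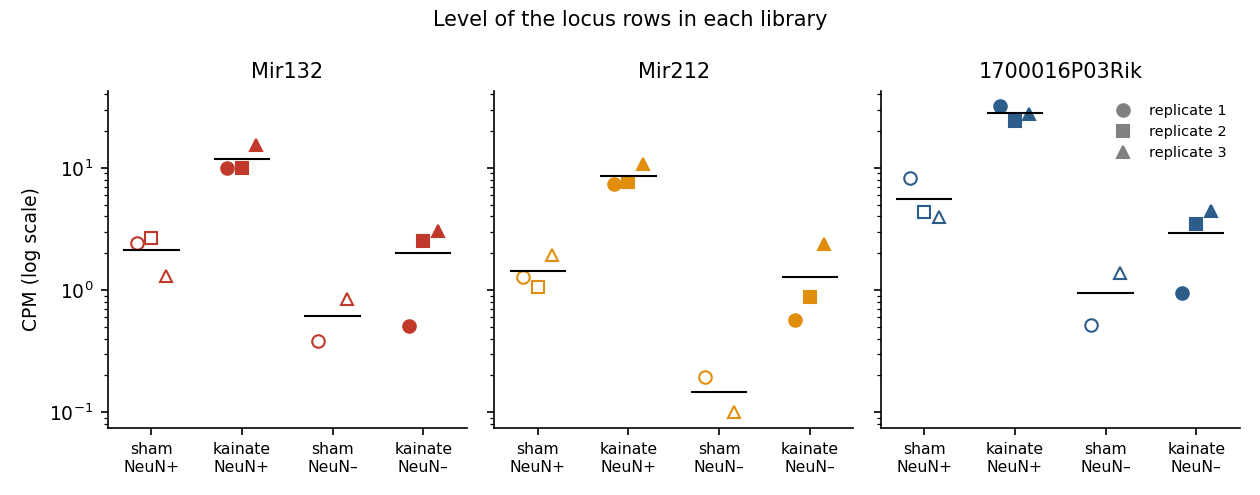
Level of each row in every library, in CPM on a log axis, by group; filled symbols are kainate, open symbols sham, the symbol gives the replicate number and the bar the group mean. In NeuN+ nuclei the kainate libraries lie above all sham libraries for the 3 rows, and in NeuN– nuclei this holds for Mir212.

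Tested with edgeR's quasi-likelihood test on 4 group means over all 11 libraries, with a call at a false discovery rate (FDR) below 0.25, no row of the locus was called in neurons. The log2 fold change was 2.47 (SE 0.62, FDR = 0.404) for Mir132, 2.58 (SE 0.59, FDR = 0.292) for Mir212 and 2.34 (SE 0.55, FDR = 0.309) for the host, or 5.54-, 5.99- and 5.07-fold. By comparison 0.157% of all genes tested were called higher in neurons and 4.26% had kainate libraries all above the sham libraries.

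The outcome of this test turned on how the spread was estimated. With the neuronal libraries fitted alone, as the study separated the cell types, all 3 rows were called higher. That separate fit called 324 of 30259 genes higher and 66 lower. Kainate and sham libraries with the same replicate number deviated together in neurons (all 3 pairs, with correlations over genes of 0.643, 0.161 and 0.491). Whether the number follows a sequencing run or the size of the pools was not tested. With the replicate number as a block all 3 rows were called higher. The blocked log2 fold change was 2.48 (SE 0.36, FDR = 1.71e-06) for Mir132, 2.61 (SE 0.39, FDR = 2.61e-06) for Mir212 and 2.41 (SE 0.28, FDR = 4.97e-09) for 1700016P03Rik, while 3.19% of all genes were called higher and 1.9% lower. The sizes hardly moved, and the standard errors became smaller. The blocked fit left 3 residual degrees of freedom per gene against 48 taken from the spread over all genes, so these FDR values rest largely on the pooled spread.

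Reads from one primary transcript are split over the 3 rows, so the rows were also summed. The sum includes the host row, whose reads in exon 3 may be Ovca2 reads or may have been dropped. The sum stood at 49.5, 41.6 and 53.7 CPM in kainate neurons and at 12.02, 8.07 and 7.16 CPM in sham neurons, again with no overlap. Its log2 fold change was 2.41 (SE 0.51, FDR = 0.219), past the threshold without a block.

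Both hairpins and the host had similar log2 fold changes in neurons. The host part of the locus reads is uncertain in exon 3, as set out above, and so are shares of the total. The hairpin rows took 34.9%, 42.1% and 48.6% of the reads of the locus in the kainate libraries and 30.7%, 45.9% and 45.0% in the sham libraries. These ranges overlapped, and for single libraries the exact binomial 95% intervals, which cover counting error only, ran for example from 31.4% to 38.6% in kainate replicate 1 and from 38.4% to 51.8% in sham replicate 3. Mir132 reads outnumbered Mir212 reads 1.34, 1.30 and 1.43 times in the kainate libraries and 1.89, 2.49 and 0.667 times in the sham libraries. The ratio was tight after kainate and wide in sham, with 92 against 37 reads in sham replicate 2 and 40 against 60 in sham replicate 3. The cause was not tested. Per kilobase of annotated sequence the level in kainate neurons was 177 CPM for Mir132 and 94.2 CPM for Mir212, although a read over a short row can begin outside it, which raises such values. The host is not set beside them, because its countable length depends on whether reads in exon 3 were kept.

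In glia all 3 rows had higher means after kainate, but the libraries were uneven and the rows differed. Mir212 stood at 0.564, 0.882 and 2.36 CPM after kainate (9, 26 and 84 reads) and at 0.192 and 0.0992 CPM after sham (3 and 2 reads). Both sham libraries lay below the lowest kainate library, as in 4.7% of all genes. The log2 fold change was 3.13 (SE 0.81) with an FDR of 0.788 by edgeR, not past the threshold, and 0.0933% of all genes were called higher in glia. With the replicate number as a block, over 2 pairs, Mir212 was called (3.25, FDR = 0.00265), as were the host (1.41, FDR = 0.0585) and Mir132 (1.39, FDR = 0.2498), in a fit that called 2.93% of all genes higher. With 119 kainate and 5 sham reads in all the size is poorly fixed. The ratio of pooled reads, scaled by the TMM-normalised library totals, was 10.5, with an exact 95% counting interval from 4.39 to 33.0. Leaving out 1 library moved the log2 fold change of Mir212 between 2.19 and 3.66.

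Mir132 stood at 0.502, 2.51 and 3.06 CPM in kainate glia and at 0.383 and 0.843 CPM in sham glia. Kainate replicate 1 lay between the sham libraries while the other kainate libraries were above both. The log2 fold change was 1.72 (SE 0.73, FDR = 1 by edgeR), and single libraries moved it, to 1.10 without kainate replicate 3 and to 2.397 without sham replicate 3. The host had the same shape, with 0.941, 3.46 and 4.41 CPM against 0.511 and 1.39 CPM and a log2 fold change of 1.62 (SE 0.65, FDR = 1 by edgeR). Single libraries moved the host value as well, between 1.00 and 2.52.

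Kainate replicate 2 and sham replicate 1 of the NeuN– fraction were made from 0.05 ng of RNA with 15 PCR cycles, against 1 ng and 10 cycles for the other libraries. Without both, leaving a single sham glia library, the glial log2 fold change was 1.12 for Mir132, 3.86 for Mir212 and 0.99 for 1700016P03Rik, each with an FDR of 1 by edgeR. The neuronal libraries were all of the higher input.

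The kainate effect did not differ detectably between the cell types. The difference in log2 fold change, neurons minus glia, was 0.75 (95% interval -1.23 to 2.73) for Mir132, -0.55 (-2.52 to 1.42) for Mir212 and 0.72 (-1.04 to 2.48) for 1700016P03Rik, each with an FDR of 1 by edgeR's quasi-likelihood test, in a comparison that called 0.00246% of all genes. These intervals reach well past 0 in both directions, so the data do not show that the effects were alike. The sign for Mir212 turned with 1 library: without kainate glia replicate 3 it was 0.36, and that for the host was -0.17 without sham glia replicate 3.

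**Figure D3:**
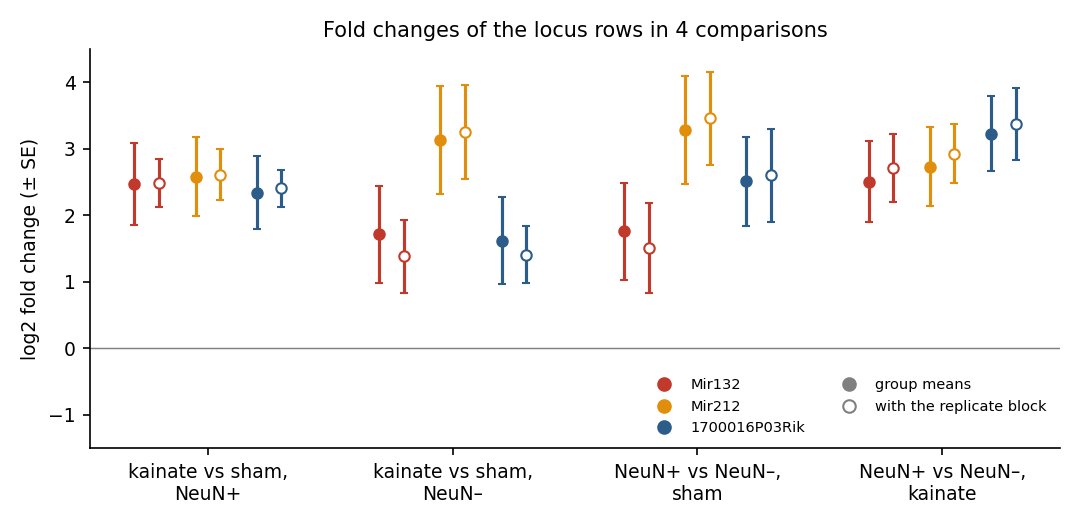
log2 fold change of each row (vertical axis, bars ± SE) in the kainate comparisons within NeuN+ and NeuN– nuclei and in the fraction comparisons within sham and kainate; filled symbols are the fit of group means, open symbols the fit with the replicate block. All values are positive, and the neuronal kainate values of the 3 rows lie between 2.34 and 2.61 in both fits.

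Between the fractions, the locus was higher in NeuN+ than in NeuN– nuclei in both treatments. In sham, the NeuN+ libraries of every row lay above both NeuN– libraries, as in 14.4% of all genes. The log2 fold change, NeuN+ over NeuN–, was 1.76 (SE 0.73, FDR = 0.207) for Mir132, 3.28 (SE 0.81, FDR = 0.0201) for Mir212 and 2.51 (SE 0.68, FDR = 0.0306) for the host by edgeR, so all 3 were called, in a comparison that called 9.11% of all genes higher in NeuN+. The call for Mir132 was lost without either sham NeuN– replicate 1 (1.36, FDR = 0.329) or any of several other single libraries.

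After kainate the log2 fold changes were 2.51 (FDR = 0.0168), 2.73 (FDR = 0.00839) and 3.23 (FDR = 0.00238) for Mir132, Mir212 and the host by edgeR, all called, while 11.3% of all genes were called higher in NeuN+. NeuN+ and NeuN– libraries did not overlap for any of the rows, as in 14.8% of all genes. The median log2 fold change of all genes in these comparisons was -0.37 in sham and -0.47 after kainate.

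The order of the group means was the same for the 3 rows: kainate neurons, sham neurons, kainate glia, sham glia. Sham neurons and kainate glia were neighbours in that order whose libraries overlapped for each row (Mir212: 1.06 to 1.93 CPM against 0.564 to 2.36 CPM). The glial level was 29.0%, 10.2% and 17.1% of the neuronal level in sham for Mir132, Mir212 and the host, and 17.3%, 14.8% and 10.5% after kainate. Over the 7 neuronal markers the corresponding shares ran from 7.16% (Slc17a7, the vesicular glutamate transporter of excitatory neurons) to 31.8% (Gad2, a GABA-synthesising enzyme) in sham and from 9.61% to 27.9% after kainate. The members thus lay in the range of the markers, and none of the 7 markers was at 0 in the NeuN– fraction.

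The summed level of these 7 markers was 606 to 881 CPM in sham glia, 699 to 961 CPM in kainate glia and 3564 to 7537 CPM in neurons. The sums of sham and kainate glia overlapped. The part that neuronal RNA in the NeuN– fraction had in the glial counts of the locus was not tested. Glial markers marked the NeuN– fraction: the 5 oligodendrocyte markers summed to 4631 to 25862 CPM in kainate glia, 8319 to 36814 CPM in sham glia and 185 to 439 CPM in NeuN+ nuclei. Beside the higher glial means of the locus after kainate, all 5 oligodendrocyte, all 3 oligodendrocyte precursor and all 6 microglia markers had negative log2 fold changes in NeuN– nuclei (medians of -0.72, -0.80 and -0.74), none called, and the summed levels of kainate and sham glia overlapped for each. Of the 6 astrocyte markers 3 were negative and 3 positive (median -0.47), with Gfap, a filament protein of reactive astrocytes, at 278 to 857 CPM in kainate and 87.9 to 232 CPM in sham glia (1.86 on the log2 scale, FDR = 1 by edgeR), in the direction of the locus. The part of these markers in the glial values of the locus was not tested. In NeuN+ nuclei, beside the higher locus rows after kainate, the 6 astrocyte markers summed to 252 to 410 CPM in kainate and 170 to 234 CPM in sham libraries, without overlap. Of these markers 4 had positive values (median 0.65) and none was called, with Gfap at 1.90 (FDR = 0.617 by edgeR) and Aqp4, a water channel, at 1.51 (FDR = 1). Their part in the neuronal values was not tested. In bulk libraries such as these, fewer cells of a type and less RNA per cell cannot be told apart.

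The genes flanking the locus had smaller log2 fold changes than its rows. Of the 5 tested genes within 100 kb (Smg6, Hic1, Ovca2, Dph1 and Rtn4rl1), none was called in either cell type in the fit of group means. Only 0.157% of all genes were called higher there in neurons and 0.0933% in glia. In neurons the log2 fold change was -0.01 (SE 0.33) for Smg6, an RNA decay factor, 0.33 (SE 0.32) for Dph1, an enzyme of diphthamide synthesis, and 0.34 (SE 0.40) for Rtn4rl1, a Nogo receptor homologue. Ovca2, which overlaps exon 3 of the host, had 12.8 to 37.6 CPM in kainate neurons and 7.92 to 24.0 CPM in sham neurons (0.87, SE 0.58, FDR = 1 by edgeR). Hic1, a transcriptional repressor, had a log2 fold change of 1.23 (SE 0.50, FDR = 1 by edgeR). With the replicate block Hic1 (1.14, FDR = 0.0863) and Ovca2 (0.87, FDR = 0.0731) passed the threshold in neurons and the other 3 did not. The blocked fit called 3.19% of all genes higher in neurons and 1.9% lower.

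The locus was at the upper end of the microRNA rows in neurons. Of 1177 other rows named for a microRNA, 209 passed the filter, and none was called in neurons or in glia by edgeR's quasi-likelihood test. Among all genes that test called 0.157% higher in neurons and 0.0933% in glia. At an unadjusted p below 0.05, 2 of the other microRNA rows were higher in neurons, and 9 were higher and 1 lower in glia. By log2 fold change in neurons Mir212 ranked 2nd and Mir132 3rd of 211 microRNA rows, behind Mir6350, which had no reads in sham neurons and a mean of 0.0622 CPM after kainate. In glia they ranked 5th and 14th.

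**Figure D4:**
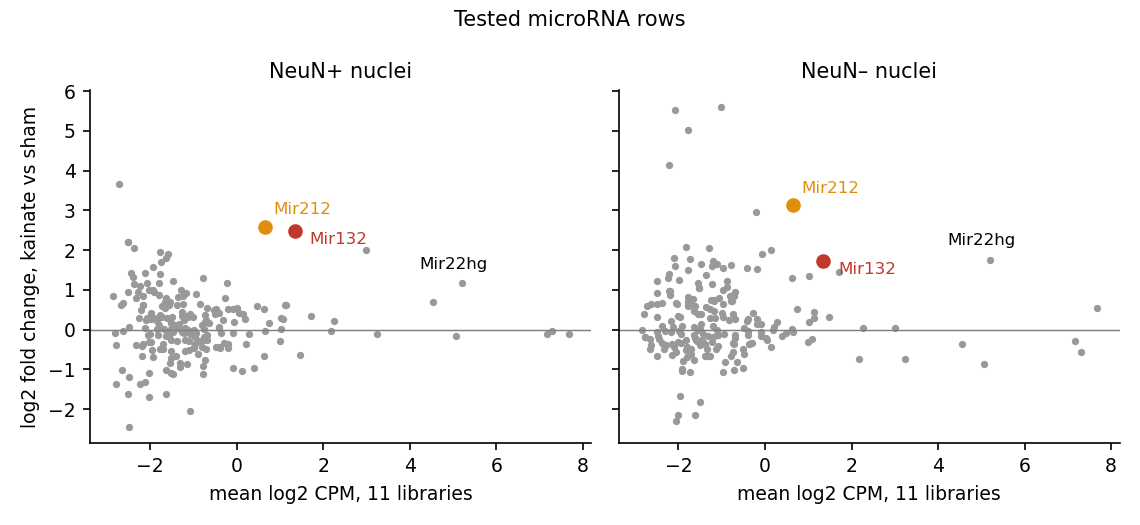
log2 fold change, kainate over sham, of the 211 tested microRNA rows (vertical axis) against their mean log2 CPM over 11 libraries (horizontal axis), in NeuN+ and NeuN– nuclei; grey points are the 209 other rows. Among rows above a mean log2 CPM of 0, Mir132 and Mir212 have the highest values in neurons; rows with larger changes in glia are mostly of lower level.

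Mir22hg, host of another microRNA, was among the better-covered of the other rows, at 102 CPM ± 33.4 in kainate and 45.7 ± 21.4 in sham neurons (SD, n = 3 each; log2 fold change 1.16, SE 0.48, FDR = 1 by edgeR). Its kainate libraries (79.2 to 140 CPM) all lay above its sham libraries (31.8 to 70.4 CPM). With the replicate block it was called in neurons (1.21, FDR = 1.25e-05), together with Mir670hg and Mir9-3hg higher and Mir6982 lower, so that 3 of 209 rows were called higher in a fit that called 3.19% of all genes higher. In glia the blocked fit called 5 higher (Mir155hg, Mir17hg, Mir22hg, Mir23b and Mir370) and 3 lower (Mir124-2hg, Mir7052 and Mir99ahg), beside 2.93% and 2.86% of all genes. Of the 26 microRNA genes listed for neurons, glia and epilepsy 13 were measured well enough to test, with a median log2 fold change of 0.16 in neurons and 0.23 in glia. Rian and Mirg, hosts of a large imprinted cluster, had values of -0.01 and 0.16 in neurons, and Mir124a-1hg, host of the neuronal microRNA miR-124, had -0.11.

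Genes that respond to neuronal activity through CREB were called higher after kainate, in part, in both cell types. Of 20 such genes 8 were called higher in neurons and 6 in glia, none lower, and all 20 had positive values in both. The median log2 fold change was 2.04 in neurons and 2.08 in glia, beside -0.01 and 0.02 over all genes tested, and 0.157% and 0.0933% of all genes were called higher. These counts turned on single libraries. Leaving out KLp replicate 1 or 2 left 1 called gene in neurons, KLp replicate 3 left 5 and KLn replicate 2 left 3. Over all genes these fits called 30, 13, 24 and 25 higher in neurons, against 64 with all libraries. Leaving out SLp replicate 2 or 3 left 0 of the list in neurons by edgeR, in fits that each called 5 of all genes higher. At an unadjusted p below 0.05 the list then had 14 and 15, and DESeq2 with all libraries called 14. For glia, 3 calls were left after dropping KLn replicate 1 and 2 after KLn replicate 2, beside 14 and 5 of all genes higher, against 38 with all libraries. Dropping either SLn replicate leaves 1 sham glia library. The glial calls were lost without SLn replicate 1 and grew in number without SLn replicate 3, and calls over all genes moved likewise. DESeq2 with all libraries called 14 of the list in glia. Without any 1 library the median ran from 1.77 to 2.54 in neurons and from 1.90 to 2.36 in glia. The list was chosen with earlier results of these libraries known, so its count is not independent evidence of its direction.

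The called genes in neurons were Nptx2, a secreted pentraxin that clusters glutamate receptors, Fosb, Fos, Egr2 and Ier2, which are rapidly induced transcriptional regulators, Arc, which acts in synaptic scaling, Gadd45g, a stress-response protein, and the kinase Sik1. Nptx2 stood at 351 CPM ± 166 after kainate and 31.8 ± 18.5 after sham (SD, n = 3 each; log2 fold change 3.46, FDR = 0.0566 by edgeR). Fos stood at 113 ± 49.8 and 13.3 ± 7.54 CPM (3.09, FDR = 0.15 by edgeR). The neuronal log2 fold changes of the locus rows, 2.34 to 2.58, lay below those of Nptx2, Fosb, Fos and Egr2 and above those of Gadd45g (2.29), Ier2 (2.24), Arc (2.16) and Sik1 (2.05).

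In glia the called genes were Fos (5.67), Gadd45b (5.26), Egr1 (4.21), Junb (3.78), Gadd45g (3.18) and Ier2 (2.75 on the log2 scale, FDR 0.0763 to 0.142 by edgeR). Fos rose from 4.56 CPM ± 0.695 (SD, n = 2) in sham to 232 ± 166 (n = 3) in kainate glia. Bdnf, an activity-dependent growth factor that itself acts upstream of the locus, had a log2 fold change of 1.75 (SE 0.49, FDR = 0.622) in neurons, and Nr4a1, an orphan nuclear receptor, 1.85 (SE 0.67, FDR = 1). With the replicate block 18 of the 20 genes were called in neurons, Per1 and Crem being the exceptions (Crem FDR = 0.252), while that fit called 3.19% of all genes higher. In glia the block called all but Nr4a1 (FDR = 0.373) and Nr4a3 (FDR = 0.638), beside 2.93% of all genes called higher. Without both libraries of low input, which leaves 1 sham glia library, no gene of the list was called in glia by edgeR (13 at an unadjusted p below 0.05), in a fit that called 1 of 44225 genes there. The median log2 fold change of the list was then 2.43. With input as a covariate 3 were called in neurons, where that fit called 40 of 40714 genes higher.

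Known regulators of the locus were not called at the RNA level in the fit of group means. Of 17 (CREB family, its coactivators, kinases, the REST repressor complex, and BDNF with its receptor) none was called in either cell type, with a median log2 fold change of 0.01 in neurons and 0.13 in glia. That fit called only 0.157% of all genes higher in neurons and 0.0933% in glia, so 0 of 17 is near the share of all genes. Creb1, the factor itself, had 0.28 (SE 0.30) in neurons and -0.01 (SE 0.34) in glia. Crem, a CREB-family gene with repressor isoforms, had 0.60 (SE 0.33) and 0.75 (SE 0.37), and Rest, a repressor of neuronal genes, 0.93 (SE 0.42) and 0.24 (SE 0.47). With the replicate block Bdnf (1.79) and Rest (0.91, FDR = 0.0363) were called higher in neurons, and the kinases Mapk3 (-0.97, FDR = 0.00065) and Rps6ka5 (-1.03, FDR = 0.000548) lower, beside 3.19% and 1.9% of all genes. In glia it called Bdnf (1.96, FDR = 6.71e-08) and Crem (0.79, FDR = 0.2) higher, beside 2.93% of all genes.

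The machinery that processes the primary transcript was not called in either cell type in the fit of group means, 0 of 17 genes, and the median log2 fold change was -0.09 in both. Of all genes that fit called only 0.157% higher in neurons and 0.0933% in glia. At an unadjusted p below 0.05 the list also had 0 in either direction. Drosha had 0.23 (SE 0.34) in neurons and -0.02 (SE 0.38) in glia, Dgcr8 0.05 (SE 0.31) and 0.23 (SE 0.35), and Dicer1 -0.19 (SE 0.37) and 0.03 (SE 0.41). Ago2, the Argonaute that can cut its target, stood at 161 CPM in kainate and 104 CPM in sham neurons (0.64, SE 0.30, FDR = 1 by edgeR) and was the 1 gene of the list called with the replicate block in neurons (0.63, FDR = 0.0333). The blocked fit called 3.19% of all genes higher in neurons and 1.9% lower. In glia the 1 gene called with the block was Ran, a GTPase of nuclear transport (0.70, FDR = 0.129), in a blocked fit that called 2.93% of all genes higher and 2.86% lower.

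**Figure D5:**
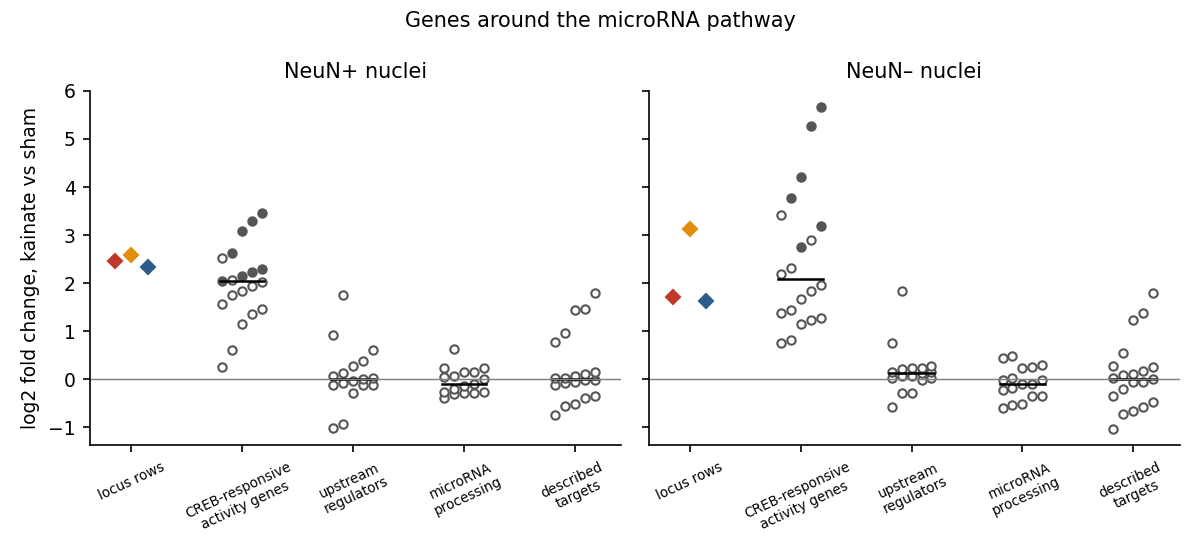
log2 fold change, kainate over sham (vertical axis), in NeuN+ and NeuN– nuclei for the locus rows (diamonds; red Mir132, orange Mir212, blue 1700016P03Rik) and the genes of 4 lists (circles, filled where FDR was below 0.25; the bar is the list's median). The medians of the activity genes lie at 2.04 and 2.08 and their values spread widely, and the medians of the other lists lie within 0.13 of 0.

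Described targets of the 2 microRNAs were taken as a list of 20 genes. Because these genes were already described as targets, a high share of seed matches among them is no independent evidence. The seed AACAGUC pairs with GACTGTT in a transcript, and 18 of the 20 listed targets held these letters in the 3′ UTR, 8 of them followed by A, against 10.4% and 2.27% of 21039 genes (median UTR length 2555.5 against 910 bases). Ache and Tmem106b held none in the transcript examined. Some of these sites are shown on GRCm38 with the match in capitals, for Arhgap32, a well known target, and for 2 targets that were called with the replicate block.
Arhgap32, chr9:32261177-32261199 plus strand: ctctgctggacagtgGACTGTTc
Spred1, chr2:117179851-117179873 plus strand: tggtttcctagagcaGACTGTTA
Zeb2, chr2:44987246-44987268 minus strand: gctaacctcaagaggGACTGTTA

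None of the 20 targets was called in neurons or in glia in the fit of group means, and the median log2 fold change was 0.01 in both. Over all genes only 0.157% were called higher there in neurons and 0.0933% in glia. At an unadjusted p below 0.05, 3 targets were higher and 0 lower in neurons, and 1 was higher and 0 lower in glia. Arhgap32, a GTPase-activating protein of dendrites, stood at 119 CPM ± 29.8 in kainate and 120 ± 38.8 in sham neurons (SD, n = 3 each; log2 fold change -0.01, SE 0.35), and the groups overlapped.

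With the replicate block 7 targets were called in neurons, 5 higher and 2 lower, in a fit that called 3.19% of all genes higher and 1.9% lower. Spred1, an inhibitor of Ras signalling, stood at 161 to 197 CPM in kainate and 50.9 to 91.3 CPM in sham neurons (blocked log2 fold change 1.47, FDR = 1.39e-07), and Btg2, an antiproliferative gene also induced by activity, at 76.7 to 171 and 25.2 to 61.9 CPM (1.82, FDR = 1.29e-09). Nr4a2, Hbegf and Ache were the others called higher, and Nr4a2 also stands in the list of activity genes. Zeb2, a zinc finger repressor, stood at 134 to 253 CPM after kainate and 292 to 335 CPM after sham (-0.78, FDR = 0.00658), and Itpkb, an inositol phosphate kinase, was called lower (-0.56, FDR = 0.188). In glia the blocked fit called Btg2 (1.34), Hbegf (1.96) and Nr4a2 (0.92) higher and Mapt, the microtubule protein tau (-1.19, FDR = 0.000253), and Rfx4, a transcription factor (-0.82, FDR = 0.221), lower, beside 2.93% and 2.86% of all genes.

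Genes with the 8-letter match GACTGTTA in the 3′ UTR had a median log2 fold change of 0.01 in neurons and 0.00 in glia (476 genes), and genes without a match 0.01 and -0.01 (18235 genes). Those with only the 7-letter match had 0.01 and -0.04 (1679 genes). The quartiles of the genes with the 8-letter match were -0.20 and 0.18 in neurons. These are RNA levels in nuclei, 24 h after the seizures, and protein was not measured.

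Some genes followed the level of the locus closely over the 11 libraries. By Pearson correlation of log2 CPM, given as a description since the groups share the libraries, the nearest to the host were Acvr1c (0.988), a receptor of the TGF-beta family, Sstr2 (0.983) and Sstr3 (0.979), receptors for somatostatin, Sh2d5 (0.979) and Galnt14 (0.979). The nearest to Mir132 were Acvr1c (0.976), the host itself (0.969), Sstr2 (0.967), Gm42809 (0.966) and Klhl40 (0.965). Those to Mir212 were Sh2d5 (0.963), Serinc2 (0.960), C2cd4b (0.951), Pcdh8 (0.950) and Acvr1c (0.949). Mir132 and Mir212 correlated with each other at 0.913. Acvr1c stood at 187 CPM in kainate neurons, 38.6 in sham neurons, 30.9 in kainate glia and 9.02 in sham glia, the same order as the locus.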

How the data were processed

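Reads had been adapter-trimmed by the authors (Trim Galore 0.4.3, per their processing notes), mapped to mm10 (GRCm38) by Rsubread and, where the mapping was unique, assigned to GENCODE genes by featureCounts. The deposited values are these raw counts, whole numbers for 53379 genes in 11 libraries made from pooled nuclei with SMART-Seq v4, with totals of 12058875 to 45428465 per library. The strand setting is not given in the sources used here. The authors' bisulfite samples (11) were not analysed here.

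From the deposited counts, genes without a symbol (105, 0.0307% of counts) were left out. filterByExpr (minimum count 10) kept 40714 genes, counts were scaled by TMM, and edgeR's quasi-likelihood test (glmQLFit with legacy=TRUE) was fitted to 4 group means. The fit had 7 residual degrees of freedom per gene, to which 6.76 were added from the spread over all genes, and a common biological coefficient of variation of 0.6. Standard errors were derived from the F statistic, p was adjusted by the Benjamini-Hochberg method over all genes of a comparison, and genes were called at FDR below 0.25. Replicates were pools of mice, so p-values measure the spread between pools, with any technical difference between them. The paper describes pools of unequal size and libraries run as single or paired reads on different instruments, which was not modelled here. NeuN+ and NeuN– libraries of the same pool entered the main fit as independent, so its fraction comparisons and cell-type difference ignored that pairing. A block by pool was run for the fraction comparisons. The scripts were tested on simulated data. Versions were R 4.3.3, edgeR 4.0.16 and DESeq2 1.42.0. Locus features came from GENCODE M21 on the same build, and 3′ UTRs from 1 principal or else the longest protein-coding transcript of a gene.

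Kainate and sham neuron libraries with the same replicate number deviated together from their group means over genes (correlations of 0.643, 0.161 and 0.491), so the replicate number was used as a block beside the main fit. Glia had 2 such pairs (0.76 and 0.787). NeuN+ and NeuN– libraries of the same number and treatment came from the same pool of mice (0.24 to 0.668).

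Alternatives were other size factors, DESeq2's Wald test, other filters and thresholds, each library left out in turn, low RNA input as a covariate or left out, replicates 2 and 3 alone, the 3 rows summed, separate fits and the block. The members and gene lists were chosen from general knowledge with earlier results of these data known. Genes named were the 3 members, list members called in a kainate comparison, a fixed set of further genes (1 of them is not reported here), neighbours within 100 kb, the 5 genes most correlated with each member and microRNA rows called; genes named for a call with the block, the Mir22hg, Mir6350, Ache, Tmem106b, Rian, Mirg and Mir124a-1hg rows, the marker shares and the sites shown were chosen after their values were seen.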

Additional observations from a re-analysis of the deposited data

How the results depend on the processing

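All values here are log2 fold changes. In neurons all 3 rows stayed positive under every alternative, and no row reversed, but the side of the threshold moved. Mir132, Mir212 and 1700016P03Rik passed it with edgeR's newer quasi-likelihood method (2.49, 2.57 and 2.39), with replicates 2 and 3 alone (2.60, 2.53 and 2.56), with a separate neuronal fit (2.50, 2.59 and 2.37), with DESeq2's Wald test (2.47, 2.58 and 2.35), with the replicate block (2.48, 2.61 and 2.41) and, chosen after seeing the data, with that block and without both libraries of low input (2.49, 2.61 and 2.41). The 3 rows summed into 1 feature, which has a single value and none for each row, passed at 2.41. The host also passed with no filter on low counts (2.31) and without the low-input libraries (2.34). Leaving out 1 library gave 2.21 to 2.67 for Mir132, 2.39 to 2.87 for Mir212 and 2.15 to 2.75 for the host. All 3 passed without kainate glia replicate 1 and without either sham glia library, and Mir212 also without kainate glia replicate 3. With the block, leaving out any 1 neuronal library (chosen after seeing the data) gave 1.96 to 2.82, 2.50 to 2.69 and 2.21 to 2.64, all past the threshold, with 2.70 for Mir132 and 2.65 for Mir212 without replicate 1 of either treatment and 2.38 for the host without replicate 2 of either. The blocked fit of all libraries called 2072 genes in neurons, against 67 without a block, and those without 1 neuronal library called 777 to 2971.

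In glia Mir212 passed with replicates 2 and 3 alone (3.998, against a single sham glia library with 2 Mir212 reads), the replicate block (3.25, FDR = 0.00265) and DESeq2 (3.11), and ranged from 2.19 to 3.66 without 1 library. The block also brought Mir132 (1.39, FDR = 0.2498, at the threshold) and the host (1.41, FDR = 0.0585) past it, but 2 pairs are too few to show that the numbers pair these libraries, and the same fit called 1194 of 40714 genes higher. The host passed without sham glia replicate 3 (2.52), which leaves 1 sham glia library, of low input, whose spread is taken from the other groups. That fit called 2359 genes higher and 453 lower and moved the median of all genes to 0.76. Without 1 library the host ranged from 1.00 to 2.52 and Mir132 from 1.10 to 2.397. The difference between cell types was 0.55 for the 3 rows summed, opposite in sign to that of Mir212 alone, which the summing does not measure. It ranged from 0.07 to 1.36 for Mir132, from -1.07 to 0.36 for Mir212 and from -0.17 to 1.33 for the host without 1 library. Mir132 in the sham fractions missed the threshold at FDR below 0.05 (1.76), with the newer method (1.703), with input as a covariate (1.73) and without low-input libraries (1.36), and without 8 of the 11 libraries in turn (range 1.36 to 2.45). The causes were not tested. The other fraction comparisons kept their calls under every alternative run, the pool block included, and group mean levels moved by less than 1 SD under DESeq2's size factors. In glia 2 to 84 reads per library lay behind Mir212, which limits the size of its change.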
